A study of Mus musculus with 42 samples.

Results

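The genes described here encode the adhesion molecules through which circulating white blood cells attach to the vessel wall: Icam1, Icam2 and Vcam1, the selectins Selp and Sele, and Selplg, the leukocyte ligand of P-selectin. They were taken by name, as every probe whose gene name on the array is one of these 6 symbols, which gave 11 of the 34891 probes with a gene symbol and 6 of 21186 genes. Values are given on the log2 scale of the normalized intensity of a spot, and a gene is the mean of its probes.

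Total RNA from aorta and from skeletal muscle was measured on 42 single-colour Agilent arrays, 3 for each tissue in each of 7 groups of adult male mice. The healthy group (G) consisted of C57 mice, and all other groups of KK/Ay mice, which carry a yellow agouti allele and turn obese and diabetic without further treatment, so that every comparison with G is also one of strain. The diabetic group (A) had no further challenge. The macroangiopathy group (C) was fed a high-fat diet and also given L-NAME, which blocks the enzymes that make nitric oxide, and these 3 groups were given saline by gavage. Mice of the SHENQI compound group (B), the yangyinyiqi group (D), the huoxue group (E) and the rosiglitazone group (F) carried the same strain, diet and L-NAME as C and were gavaged with the herbal compound, with one of its parts, or with rosiglitazone, a drug that activates the nuclear receptor PPARγ. The labels do not tie an array to a mouse, so P values measure the spread between these arrays. Both tissues of a group may come from the same 3 mice, in which case its 6 arrays in a fit over both tissues are not independent.

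Leukocytes leave the blood in steps. Selectins on activated endothelium catch passing cells by sugar-bearing ligands such as the product of Selplg, which makes the cells roll, and integrins of the leukocyte then bind the immunoglobulin-type proteins ICAM1, ICAM2 and VCAM1 and bring the cell to a stop. P-selectin is stored in granules of endothelial cells and platelets, E-selectin is made by endothelium only after cytokine stimulation, ICAM2 is present on resting endothelium, and ICAM1 and VCAM1 are raised by inflammatory signals through NF-κB and are found over atherosclerotic lesions.

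For the 4 genes that passed in at least 1 comparison between groups, 1 probe that lies in coding sequence is shown, 5′ to 3′ and with mm9 coordinates, so that the part of the transcript that was read is known. The Icam1 probe lies in the part that codes for the cytoplasmic tail, the Vcam1 probe in an immunoglobulin domain, the Selp probe in a complement-type repeat and the Selplg probe in the cytoplasmic tail. These probes were well above background on 24, 26, 38 and 42 of the 42 arrays, and each of the 4 genes had another probe that was so on all 42.
Icam1, chr9:20832290-20832349, plus strand: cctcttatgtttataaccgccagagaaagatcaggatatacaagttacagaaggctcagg
Vcam1, chr3:115828953-115829012, minus strand: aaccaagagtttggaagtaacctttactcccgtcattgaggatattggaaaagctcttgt
Selp, chr1:166071558-166071617, plus strand: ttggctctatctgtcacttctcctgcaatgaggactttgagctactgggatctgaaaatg
Selplg, chr5:114269133-114269192, minus strand: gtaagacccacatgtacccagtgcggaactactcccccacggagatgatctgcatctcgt

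Promoter sequence from RefSeq (GRCm38.p6) was matched for 3 of the 6 genes and is shown because Icam1 and Selp both passed in muscle in E vs C and F vs C, while Sele was never detected. Each run holds the 250 bases before the transcription start, on the plus strand. Capitals mark 4 motifs searched on both strands with overlaps allowed: GGNNNTTCC (NF-κB-like), TGANTCA (AP-1), TATAAA and GGGCGG (Sp1).
Icam1, chr9:21015690-21015939: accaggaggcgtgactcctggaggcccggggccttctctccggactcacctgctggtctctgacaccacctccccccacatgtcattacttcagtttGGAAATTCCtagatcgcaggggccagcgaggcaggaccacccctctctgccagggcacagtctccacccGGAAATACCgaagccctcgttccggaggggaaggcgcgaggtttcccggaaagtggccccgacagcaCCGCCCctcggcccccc
Selp, chr1:164115014-164115263: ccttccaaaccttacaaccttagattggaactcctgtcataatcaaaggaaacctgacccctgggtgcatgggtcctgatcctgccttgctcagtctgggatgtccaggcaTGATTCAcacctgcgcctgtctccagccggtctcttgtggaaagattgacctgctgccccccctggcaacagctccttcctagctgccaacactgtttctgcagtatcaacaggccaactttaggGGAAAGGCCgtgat
Sele, chr1:164047984-164048233: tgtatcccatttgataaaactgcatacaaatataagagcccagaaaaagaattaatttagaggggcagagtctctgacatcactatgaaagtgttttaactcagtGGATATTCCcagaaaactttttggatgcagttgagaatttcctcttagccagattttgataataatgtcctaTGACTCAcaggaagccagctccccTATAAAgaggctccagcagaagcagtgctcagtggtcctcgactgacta
The NF-κB-like letters stand 153 and 84 bases before the start of Icam1, 145 before that of Sele and 14 before that of Selp, and 15.7% of the 32851 promoter windows of this length hold them. The AP-1 letters stand 139 bases before Selp and 73 before Sele (6.75% of windows), TATAAA 49 bases before Sele (12.4%) and the Sp1 letters 17 bases before Icam1 (32.7%). A match of letters is a description and not a site in use.

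Between 62.9% and 77.6% of the probes were well above background on the aorta arrays and between 53.8% and 70% on the muscle arrays. All 14 endothelial marker genes, among them Cdh5, Pecam1 and Vwf, were well above background on every array of both tissues. Markers of several tissues varied widely between aorta arrays. The mean of 6 smooth muscle markers ran from 9.48 (healthy 1) to 14.66, and that of 6 cardiac markers from 5.16 to 11.65. The mean of 5 skeletal muscle fibre markers ran from 6.83 to 15.1 (diabetic 2). The part of this content in the results below was not tested. B cell genes varied widely too: Cd79b, a chain of the B cell receptor complex, ran from 7.35 to 14.96. It was above 12 on 6 of the 21, which were healthy 1, macroangiopathy 3, SHENQI 2, yangyinyiqi 2, huoxue 2 and rosiglitazone 1, and at most 11.39 on the others, so that only the diabetic group had no such array.

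Sele was well above background on none of the 42 arrays, and the other genes had a probe that passed on every array. The Icam1 level was 7.76 ± 0.57 (SD, n = 21) in aorta, from 6.86 to 9.33, and 6.86 ± 0.42 in skeletal muscle, from 6.46 to 7.99. Icam2 ran from 11.76 to 13.10 in aorta and from 10.72 to 11.41 in muscle, with no overlap between the tissues. The Vcam1 level was between 6.80 and 8.72 in aorta and between 5.62 and 6.80 in muscle. Of the immunoglobulin-type genes, Icam2 was thus the one that kept the tissues fully apart, and its spread within muscle, an SD of 0.20, was the narrowest of the 5 detected genes.

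Selp read from 5.82 to 7.56 in aorta and from 5.63 to 7.09 in muscle, which are nearly the same ranges. Selplg ran from 6.4 to 10.49 in aorta and from 6.15 to 7.80 in muscle, and its aorta range of 4.09 log2 units was the widest of the 6. Sele gave 3.03 to 4.49 in aorta and 2.43 to 5.07 in muscle, and as it was not well above background anywhere it was not tested.

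In a fit over all 42 arrays with group as a term, 4 of the 5 tested genes were higher in aorta than in skeletal muscle. At this contrast 77.3% of all genes passed an unadjusted P of 0.05 and 76% passed after Benjamini-Hochberg adjustment, so a tissue difference is the rule among genes and not a mark of these. The aorta minus muscle difference was 0.90 ± 0.13 (SE) for Icam1, 1.37 ± 0.10 for Icam2, 1.47 ± 0.11 for Vcam1 and 1.15 ± 0.26 for Selplg, with limma adjusted P values from 3.28e-15 for Icam2 to 0.000156 for Selplg. For Selp it was 0.12 ± 0.12 (limma unadjusted P = 0.323, adjusted P = 0.364). The Selp difference depended on the scaling: it was 0.37 with the processed signal over the 75th percentile (adjusted P = 0.0182) and 0.56 with quantile normalization within each tissue (adjusted P = 9.03e-05), a setting that also shifted the median of all genes by 0.23. Without the aorta arrays with Cd79b above 12, the Selplg difference was 0.53 ± 0.12 (adjusted P = 0.000341), and with its brightest probe the Vcam1 difference was 2.34 ± 0.19 (adjusted P = 9.4e-14). With the healthy arrays alone, 2 of the 5 genes passed the unadjusted threshold, Icam2 (adjusted P = 0.109) and Vcam1 (adjusted P = 0.169). Cells of a type being fewer and their RNA being less cannot be told apart in tissue RNA, here or below.

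**Figure D1:**
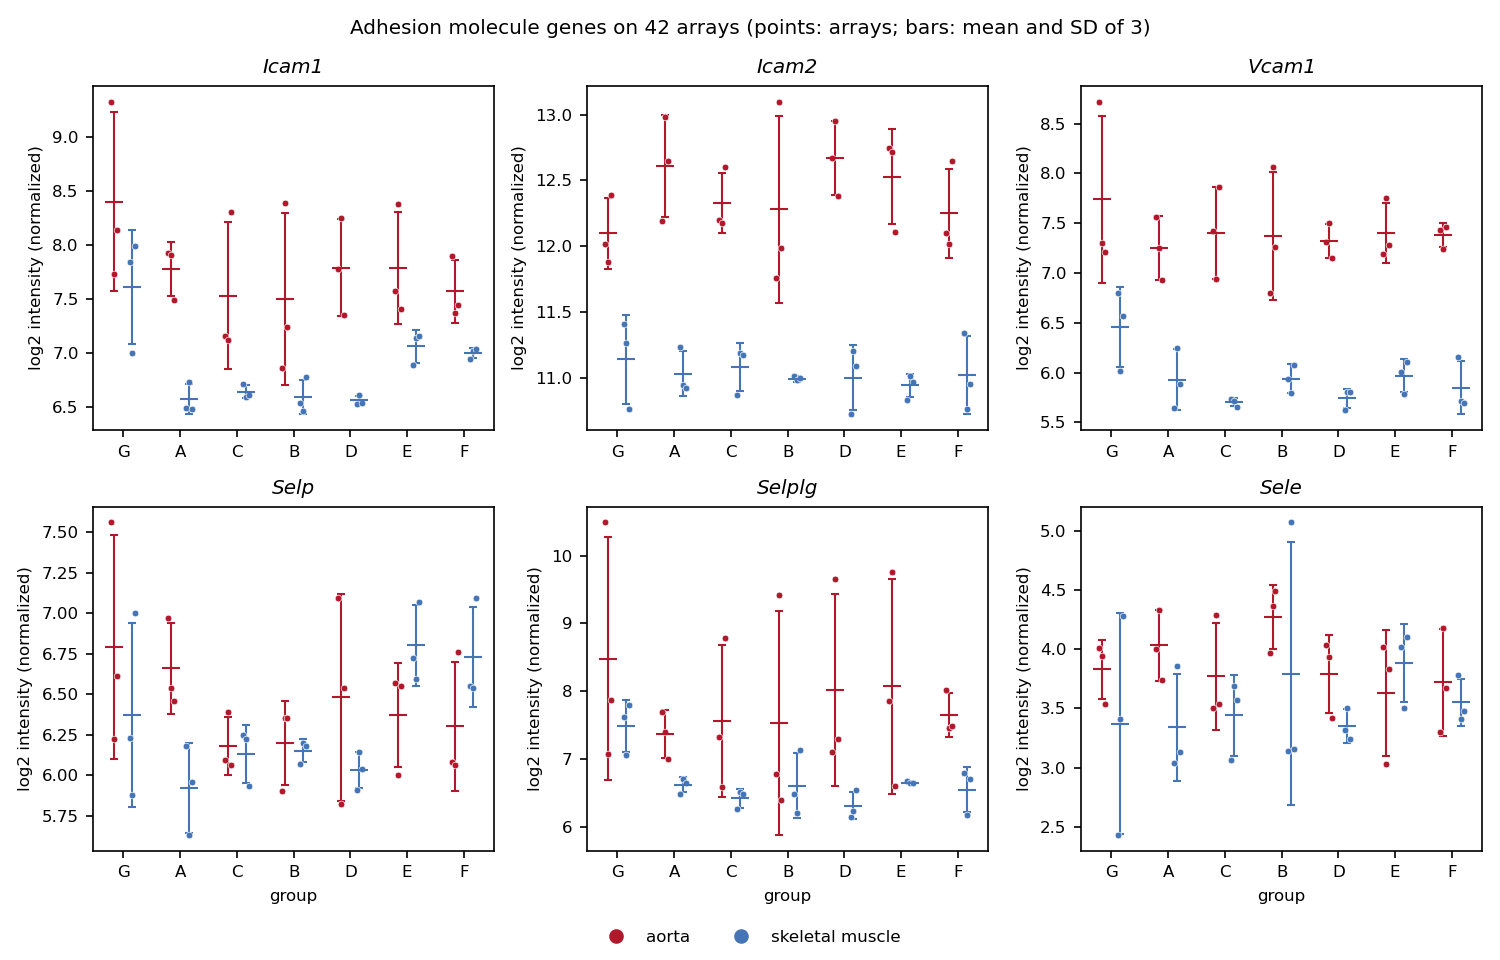
Normalized log2 intensity of the 6 genes in the 7 groups (G healthy, A diabetic, C macroangiopathy, B SHENQI, D yangyinyiqi, E huoxue, F rosiglitazone), with a point for each array and bars for mean and SD of 3, aorta in red and skeletal muscle in blue. Icam2 kept the tissues apart on every array, Selp did not, and the y axes differ between genes, which are not to be compared in level.

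When the groups were ordered by their mean, neighbouring groups overlapped at every step in aorta for all 6 genes. In muscle they overlapped at every step except one each for Icam1, between rosiglitazone and macroangiopathy, and for Selplg, between healthy and huoxue. The healthy group had the highest mean of Icam1, Vcam1 and Selplg in both tissues, and of Selp in aorta. In aorta the rank of Vcam1, Selp and Selplg rests on healthy array 1, at 8.72, 7.56 and 10.49. The other healthy aorta arrays read 7.30 and 7.21 for Vcam1, 6.22 and 6.61 for Selp, and 7.07 and 7.87 for Selplg. Icam2 was highest in the yangyinyiqi group in aorta, at 12.67 ± 0.28, and lowest in the healthy group, at 12.10 ± 0.27, but their arrays overlapped.

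The spread within groups was wide in aorta and went with some leukocyte genes, those of B cells among them. Ptprc, the common leukocyte antigen, read 8.73 to 10.4 on the 6 arrays with Cd79b above 12 and at most 7.98 on the others. Lyz2 read 13.92 to 14.91 on them and at most 13.45 on the others. Other leukocyte markers overlapped: Cd68 read 8.25 to 9.56 on them and up to 9.34 on the others. S100a8 read 7.84 to 14.99 on them and up to 12.46 on the others. On the 6 arrays with Cd79b above 12, Selplg read 8.02 to 10.49, above each of the 15 others, which read 6.4 to 7.87. These arrays held ranks 1 to 6 of 21 for Selplg. Icam1 read 7.90 to 9.33 on them against 6.86 to 8.14 on the others, and Vcam1 7.43 to 8.72 against 6.80 to 7.56, with some overlap for both. The median of Selp was lower on the 6 arrays, 6.07 against 6.54, although healthy array 1 had the highest Selp of all aorta arrays, 7.56. The ranges of Icam2 overlapped almost fully, 12.02 to 13.10 against 11.76 to 12.98, with a higher median on the 6 arrays, 12.66 against 12.20. What part leukocytes had in the group differences was not tested, and values without the 6 arrays stand beside the results below.

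**Figure D2:**
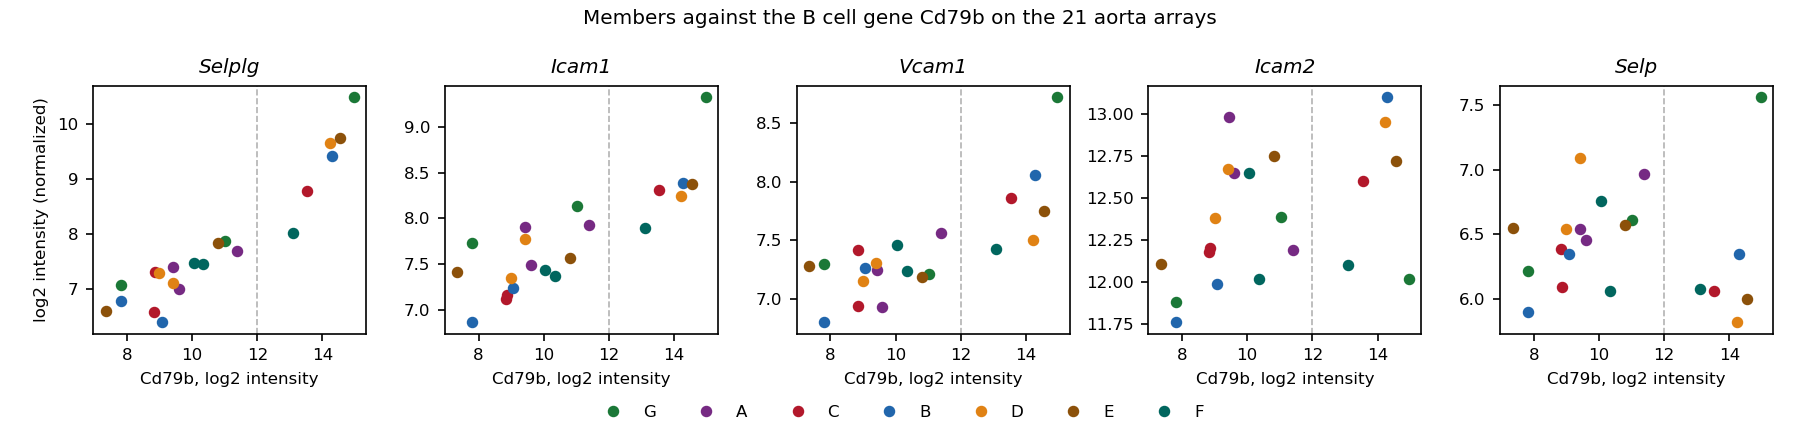
Normalized log2 intensity of the 5 detected genes (y) against that of Cd79b (x) on the 21 aorta arrays, coloured by group, with a dashed line at a Cd79b of 12. To the right of the line Selplg exceeded all other arrays, Icam1 and Vcam1 overlapped them in part, and Selp and Icam2 overlapped them over most of their range.

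The comparison of the diabetic with the healthy group (A vs G) asks how these genes stand in spontaneous diabetes. Icam1 and Selplg were lower in the diabetic mice, in the fit over both tissues and in muscle alone, and no gene was higher. In the fit over both tissues 2 of the 5 tested genes passed the unadjusted P of 0.05, against 21.7% of all genes. In muscle alone it was 2 of 5 against 21.8%, and in aorta alone 0 of 5 against 11.4%. The median difference of the 5 genes over both tissues was -0.51, and that of all genes 0.04.

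Icam1, the main endothelial receptor of the leukocyte integrin LFA-1, read 7.84, 7.00 and 7.99 on the healthy muscle arrays and 6.49, 6.73 and 6.48 on the diabetic ones. Every diabetic array was below every healthy one. The difference was -1.04 ± 0.28, or 2.05-fold (limma unadjusted P = 0.00777, adjusted P = 0.0967). In aorta the healthy arrays gave 9.33, 7.73 and 8.14 and the diabetic arrays 7.93, 7.91 and 7.49, which overlapped. Over both tissues the difference was -0.83 ± 0.27 (limma unadjusted P = 0.00943, adjusted P = 0.106), and it was -0.65 without the arrays with Cd79b above 12.

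Vcam1, which binds the integrin VLA-4 of lymphocytes and monocytes, read 6.80, 6.02 and 6.57 in healthy muscle and 5.64, 6.25 and 5.89 in diabetic muscle. The groups overlapped, and the difference of -0.53 ± 0.26 did not pass (limma unadjusted P = 0.0821, adjusted P = 0.29). Of the 3 Vcam1 probes, only the brightest was well above background on all 42 arrays, the others on 26 and on 5. With the brightest probe in place of the mean, the Vcam1 difference was -1.02 in muscle (unadjusted P = 0.042, adjusted P = 0.197) and -1.02 over both tissues (unadjusted P = 0.0191, adjusted P = 0.143). Icam2 gave 0.20 ± 0.20 over both tissues (adjusted P = 0.576).

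Selp differed by -0.44 ± 0.31 in muscle and by -0.14 ± 0.38 in aorta, and neither passed. Healthy muscle read 6.23, 5.88 and 7.00 and diabetic muscle 6.18, 5.63 and 5.96, with overlap. Selplg read 7.62, 7.06 and 7.80 in healthy muscle and 6.49, 6.71 and 6.65 in diabetic muscle, where all diabetic arrays were lower. This fall was -0.88 ± 0.22, or 1.84-fold (limma unadjusted P = 0.00587, adjusted P = 0.0851). In aorta, healthy array 1 stood at 10.49 and the other healthy arrays at 7.07 and 7.87, against 7.70, 7.40 and 7.00 in the diabetic group. The Selplg difference over both tissues was -0.99 ± 0.45 (unadjusted P = 0.0479, adjusted P = 0.225) and -0.53 without the arrays with Cd79b above 12. It lost its call when any of 8 of the 12 arrays was left out: healthy muscle 1 or 3, or any of the 6 diabetic arrays.

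Arrays of the groups did not overlap for 2 of the 5 genes in muscle, Icam1 and Selplg, where 30.7% of all genes did not overlap, and for none in aorta, where 19.1% did not. No gene had an interaction of group with tissue (0 of 5, against 6.59% of all genes). Arrays of both groups shared a slide only in aorta, where diabetic array 1 lay with healthy arrays 1 and 3. Within that slide the difference was -0.80 for Icam1, -0.40 for Vcam1 and -1.48 for Selplg. These values rest on healthy array 1, which has high Cd79b: against healthy array 3 alone they were -0.21 for Icam1, 0.36 for Vcam1 and -0.17 for Selplg.

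The macroangiopathy group against the healthy group (C vs G) uses the same healthy arrays. In muscle Icam1, Vcam1 and Selplg were lower in the model, 3 of the 5 tested genes against 21.6% of all genes. Over both tissues 1 of 5 passed, Icam1, against 24.4%, and in aorta 0 of 5 against 18.3%. The median over the 5 genes in muscle was -0.76, beside 0.04 over all genes.

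Icam1 read 6.71, 6.59 and 6.61 in macroangiopathy muscle, below all healthy arrays, a difference of -0.97 ± 0.27 (limma unadjusted P = 0.00926, adjusted P = 0.107). Over both tissues it was -0.92 ± 0.30 (unadjusted P = 0.00983, adjusted P = 0.094), and -0.90 with an adjusted P of 0.0345 without the arrays with Cd79b above 12. In aorta Icam1 gave -0.87 ± 0.52 (limma unadjusted P = 0.141, adjusted P = 0.411), which did not pass. Without the arrays with high Cd79b it was -0.80 in aorta (unadjusted P = 0.0224, adjusted P = 0.266). In the fits of all 42 arrays Icam1 passed in aorta (unadjusted P from 0.0192 to 0.0482), but not after adjustment. Vcam1 read 5.73, 5.71 and 5.65, also below all healthy muscle arrays, a difference of -0.76 ± 0.22, or 1.70-fold (unadjusted P = 0.0111, adjusted P = 0.117). With its brightest probe the Vcam1 difference was -1.19 (adjusted P = 0.133).

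Selplg read 6.26, 6.52 and 6.49, a difference of -1.07 ± 0.22, or 2.10-fold (limma unadjusted P = 0.00207, adjusted P = 0.0574). In aorta its macroangiopathy arrays gave 7.32, 6.59 and 8.78, the last being the one with high Cd79b, and the difference of -0.91 ± 0.98 did not pass. Selplg over both tissues gave -0.99 ± 0.52 (unadjusted P = 0.0796) and, without the arrays with high Cd79b, -0.85 (unadjusted P = 0.00434, adjusted P = 0.0707). Selp gave -0.61 ± 0.37 in aorta and -0.24 ± 0.30 in muscle, and Icam2 0.23 ± 0.23 and -0.07 ± 0.22, none of which passed.

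In muscle 3 of 5 genes did not overlap between C and G, against 30.3% of all genes, and in aorta none, against 27.9%. No interaction with tissue passed (0 of 5, against 12%). No slide held arrays of both groups in the same tissue.

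The mean of leukocyte markers was also higher in healthy muscle. The mean of the 13 leukocyte markers with a value on every array, of 14 listed, was 7.08 to 8.41 on the healthy muscle arrays, 6.69 to 6.86 on the diabetic and 6.57 to 6.72 on the macroangiopathy arrays, so every healthy array was above all the others. Of the 12 tested, 4 fell in A vs G and 5 in C vs G, where 21.8% and 21.6% of all genes passed. Those that fell included Ptprc, the common leukocyte antigen (-1.03 ± 0.38 and -1.33 ± 0.37), and the macrophage gene Adgre1 (-0.88 ± 0.23 and -1.25 ± 0.17). Other markers overlapped between groups, such as Cd68, at 7.81, 7.64 and 10.13 in healthy and 7.78, 8.12 and 8.21 in diabetic muscle. The 14 endothelial markers had means of 8.59 to 9.09 in healthy, 8.80 to 8.96 in diabetic and 8.83 to 8.90 in macroangiopathy muscle, which overlapped. Healthy muscle array 1 also carried the B cell gene Cd79b at 11.2 and array 3 the neutrophil gene S100a8 at 14.3. With each of the 6 arrays left out in turn, the Icam1 difference in muscle stayed between -1.34 and -0.85 in A vs G, and that of Selplg between -1.09 and -0.73, all with an unadjusted P under the threshold. The part of leukocytes in these differences was not tested. When all arrays were fitted at once, so that both tissues shared 1 estimate of the spread, the Icam1 calls in muscle stayed and those of Selplg were lost without any slide term (unadjusted P = 0.242 in A vs G and 0.155 in C vs G). With slide as a random block the Selplg differences were -0.91 ± 0.85 and -1.13 ± 0.81.

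**Figure D3:**
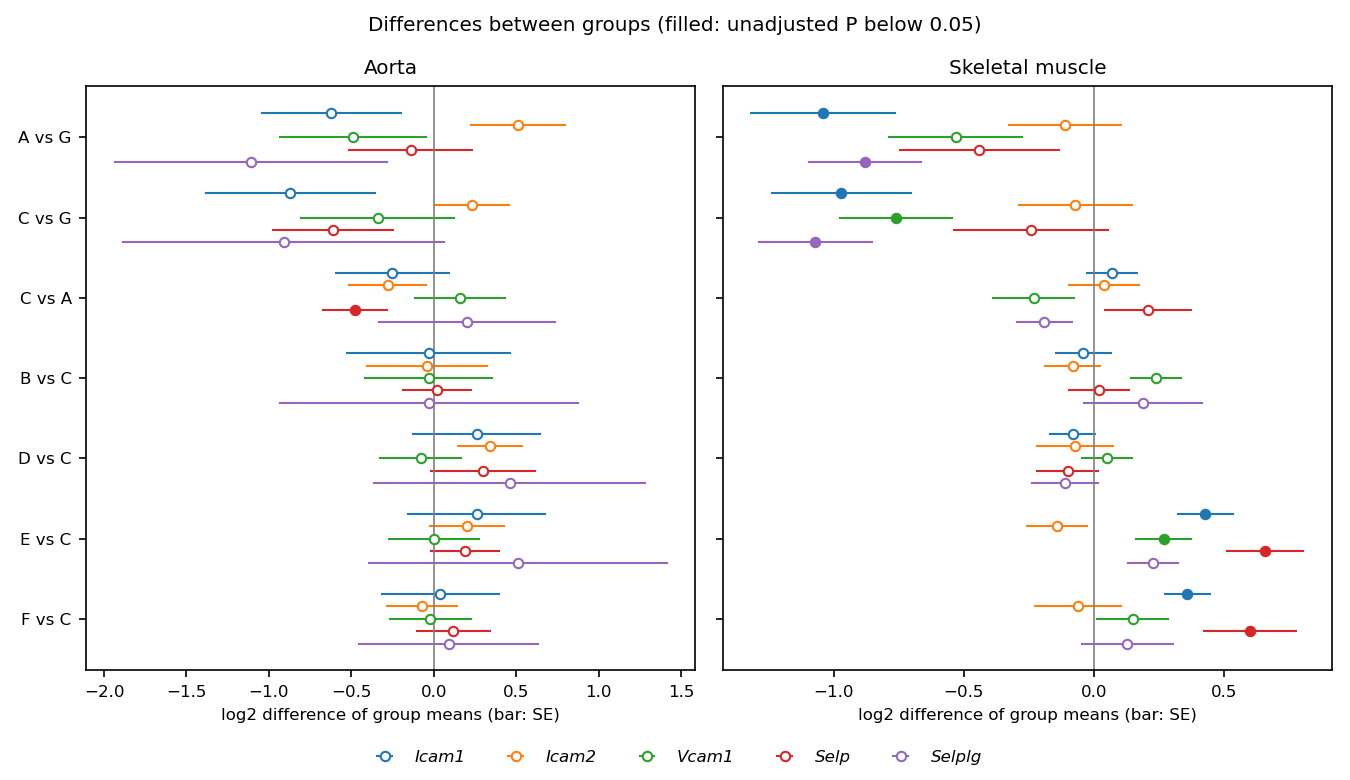
Difference of group means on the log2 scale (x, bars are SE) for the 5 tested genes in the 7 comparisons, aorta left and skeletal muscle right, filled where the unadjusted P was below 0.05. The filled points lie to the left of 0 in muscle for A vs G and C vs G, to the right of 0 in muscle for E vs C and F vs C, and in aorta only at Selp in C vs A.

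What the high-fat diet and L-NAME add to diabetes is asked by C vs A. Only Selp passed, and only in aorta, where it was lower in the model. The diabetic aorta arrays read 6.97, 6.54 and 6.46 and the macroangiopathy arrays 6.09, 6.39 and 6.06, without overlap. The difference was -0.48 ± 0.20, or 1.39-fold (limma unadjusted P = 0.0498, adjusted P = 0.972). In muscle Selp gave 0.21 ± 0.17, from 6.18, 5.63 and 5.96 in the diabetic to 6.25, 6.22 and 5.93 in the macroangiopathy group, and the aorta minus muscle interaction was -0.68 ± 0.27 (unadjusted P = 0.0275, adjusted P = 0.967). The call was at the threshold: it was lost without diabetic aorta 1 or 2 or macroangiopathy aorta 1 or 3 (unadjusted P up to 0.133), and without the array with high Cd79b the difference was -0.42. Among the 14 endothelial markers 3 fell in the same comparison, Tek, Tie1 and Nos3, by 0.75, 0.52 and 0.73, and their mean was 9.67 to 10 in diabetic and 9.44 to 9.49 in macroangiopathy aorta. The part of endothelial content in the Selp difference was not tested.

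The share of all genes that passed in C vs A was 5.18% over both tissues, 4.04% in aorta, 6.98% in muscle and 4.52% for the interaction, beside 0, 1, 0 and 1 of the 5 genes. One gene, Selp, did not overlap in aorta, against 9.65% of all genes, and none in muscle, against 14%. Icam1 gave -0.25 ± 0.35 in aorta and 0.07 ± 0.10 in muscle, and Vcam1 0.16 ± 0.28 and -0.23 ± 0.16. Without the arrays with Cd79b above 12, which leaves macroangiopathy aorta arrays 1 and 2 of that group, Icam1 in aorta was -0.64 (unadjusted P = 0.026, adjusted P = 1). In that fit the interaction of Icam1 was -0.71 (limma unadjusted P = 0.00922) and did not pass after adjustment. The Selp calls in aorta and for the interaction were both lost. No slide held arrays of both groups in the same tissue.

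Each treatment was set against the untreated model, and the 4 comparisons share the macroangiopathy arrays. SHENQI compound (B vs C) and its yangyinyiqi part (D vs C) had none of the 5 genes past the threshold in either tissue. The huoxue part (E vs C) and rosiglitazone (F vs C) both had higher Icam1 and Selp in muscle, and the huoxue part also higher Vcam1. No gene passed as lower in any of the 4.

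For B vs C, 0 of 5 genes passed over both tissues (2.75% of all genes did), in aorta (1.8%), in muscle (3.03%) and for the interaction (2%). The differences over both tissues were -0.04 ± 0.26 for Icam1, -0.06 ± 0.20 for Icam2, 0.10 ± 0.21 for Vcam1, 0.02 ± 0.11 for Selp and 0.08 ± 0.50 for Selplg. The largest separation was Vcam1 in muscle, 5.94, 5.79 and 6.08 against 5.73, 5.71 and 5.65, where all SHENQI arrays were higher (0.24 ± 0.10, limma unadjusted P = 0.0544, adjusted P = 0.999). It was the 1 of 5 genes without overlap in muscle, against 7.77% of all genes, and within the slide that held 2 arrays of each group the difference was 0.21. With the brightest Vcam1 probe it was 0.35 (unadjusted P = 0.0387, adjusted P = 1).

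For D vs C, 0 of 5 genes passed over both tissues (3.4% of all genes did), in aorta (1.63%), in muscle (3.94%) and for the interaction (1.98%). The differences in muscle lay between -0.11 ± 0.13 for Selplg and 0.05 ± 0.10 for Vcam1. In aorta the largest difference was that of Selplg, 0.46 ± 0.83, from arrays of 7.11, 9.65 and 7.30 against 7.32, 6.59 and 8.78. On the slide that held yangyinyiqi aorta array 1 and the 3 macroangiopathy aorta arrays, Selp differed by 0.91, against 0.30 ± 0.32 over all 6 arrays. Without the arrays with Cd79b above 12, the interactions of Icam1 (0.50, unadjusted P = 0.0281, adjusted P = 0.975) and Selp (0.67, unadjusted P = 0.0323, adjusted P = 0.975) passed. Arrays of the groups overlapped for all 5 genes in both tissues, whereas 5.89% of all genes in aorta and 8.71% in muscle did not.

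In E vs C the calls within a single tissue were all in muscle, and no interaction with tissue passed. Selp read 6.72, 6.59 and 7.07 in huoxue muscle against 6.25, 6.22 and 5.93 in macroangiopathy muscle, with all huoxue arrays higher. The rise was 0.66 ± 0.15, or 1.59-fold (limma unadjusted P = 0.00313, adjusted P = 0.0186). Icam1 read 6.89, 7.14 and 7.16 against 6.71, 6.59 and 6.61, a rise of 0.43 ± 0.11, or 1.34-fold (unadjusted P = 0.00461, adjusted P = 0.0235). The dimmer Icam1 probe was well above background on none of these arrays, and the brighter one read 8.88 ± 0.27 (SD) against 8.41 ± 0.14. Vcam1 read 6.01, 5.78 and 6.11 against 5.73, 5.71 and 5.65, a rise of 0.27 ± 0.11 (unadjusted P = 0.0395, adjusted P = 0.0947) that lost its call when any of 5 of the 6 arrays was left out (all except huoxue 2). Its brightest probe read 7.74 ± 0.08 (SD) against 7.46 ± 0.04, and its other probes were well above background on none of these arrays. Selplg, at 6.67, 6.65 and 6.64 against 6.26, 6.52 and 6.49, gave 0.23 ± 0.10 (adjusted P = 0.117), and Icam2 -0.14 ± 0.12.

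With the processed signal over the 75th percentile only Selp passed, and Icam1 gave 0.26 ± 0.15 and Vcam1 0.16 ± 0.17. These counts stand against a wide shift of the whole muscle comparison. In E vs C muscle 44.6% of all genes passed the unadjusted and 30.5% the adjusted threshold, beside 3 and 2 of the 5 genes here, and 50% of all genes did not overlap, beside 4 of 5, all but Icam2. Over both tissues only Selp passed, 0.43 ± 0.15 (limma unadjusted P = 0.015, adjusted P = 0.246), 1 of 5 against 14.2%. In aorta 0 of 5 passed against 2.18%, and for the interaction 0 of 5 against 17.2%, so a difference between the tissues was not shown for any gene. Aorta Selp read 6.57, 6 and 6.55, which overlapped with the model, as did every other gene there (7.47% of all genes did not overlap). Without the arrays with Cd79b above 12, Icam1 also passed over both tissues, at 0.40 (unadjusted P = 0.00194, adjusted P = 0.178).

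In F vs C muscle, Selp read 6.55, 6.54 and 7.09, above all macroangiopathy arrays, a rise of 0.60 ± 0.18, or 1.51-fold (limma unadjusted P = 0.0116, adjusted P = 0.0806). Icam1 read 6.94, 7.02 and 7.04, also above all of them, a rise of 0.36 ± 0.09, or 1.29-fold (unadjusted P = 0.00502, adjusted P = 0.0545). The dimmer Icam1 probe was again well above background on none of these arrays, and the brighter one read 8.88 ± 0.19 (SD) against 8.41 ± 0.14. With the processed signal neither passed, at 0.48 ± 0.26 for Selp and 0.29 ± 0.14 for Icam1. Vcam1 gave 0.15 ± 0.14, Selplg 0.13 ± 0.18 and Icam2 -0.06 ± 0.17 in muscle. Here 2 of 5 genes passed against 29.3% of all genes, and 2 of 5 did not overlap against 36.4%. In aorta 0 of 5 passed against 6.69%, none was without overlap against 15.4%, and the differences lay between -0.07 ± 0.22 for Icam2 and 0.12 ± 0.23 for Selp. Over both tissues 0 of 5 passed against 12%, and for the interaction 0 of 5 against 16.5%. Without the arrays with Cd79b above 12, Icam1 (0.32, unadjusted P = 0.00198, adjusted P = 0.179) and Selp (0.43, unadjusted P = 0.0368, adjusted P = 0.295) passed over both tissues.

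Slide went with treatment in muscle. The 3 huoxue arrays and rosiglitazone array 1 lay on slide 11, rosiglitazone arrays 2 and 3 on slide 3 with healthy arrays 1 and 2, and the macroangiopathy arrays on slides 7 and 8, so no slide held arrays of E or F and of C in muscle. On slide 11 Selp ran from 6.55 to 7.07 and Icam1 from 6.89 to 7.16, and on slides 7 and 8 Selp ran from 5.91 to 6.25 and Icam1 from 6.46 to 6.78, whatever the group. On slide 3 the rosiglitazone arrays had higher Selp, 6.54 and 7.09, than the healthy arrays on the same slide, 6.23 and 5.88, whereas their Icam1, 7.02 and 7.04, lay between the healthy values of 7.84 and 7.00. When all 42 arrays were fitted at once with no slide term, the muscle call of Selp in E vs C stayed (unadjusted P = 0.0324), and those of Icam1 (unadjusted P = 0.234) and Vcam1 (unadjusted P = 0.373) in E vs C and of Icam1 (unadjusted P = 0.311) and Selp (unadjusted P = 0.0531) in F vs C were lost. When slides 1, 3 and 11 were set against the other slides as a batch, over all 42 arrays, none of the 5 muscle calls of E and F vs C stood: Selp gave 0.68 ± 0.38 (unadjusted P = 0.0819) and 0.61 ± 0.38 (unadjusted P = 0.116), Icam1 0.50 ± 0.45 and 0.43 ± 0.45. All E and F muscle arrays lie in that batch and no C array does, so its term was set by arrays of other groups. With slide as a random block, Selp gave 0.72 ± 0.34 in E (unadjusted P = 0.0422, adjusted P = 0.309) and 0.67 ± 0.33 in F (unadjusted P = 0.0472, adjusted P = 0.584), and the Icam1 and Vcam1 calls were lost. Since no slide holds both sides, slide and treatment cannot be told apart within muscle.

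**Figure D4:**
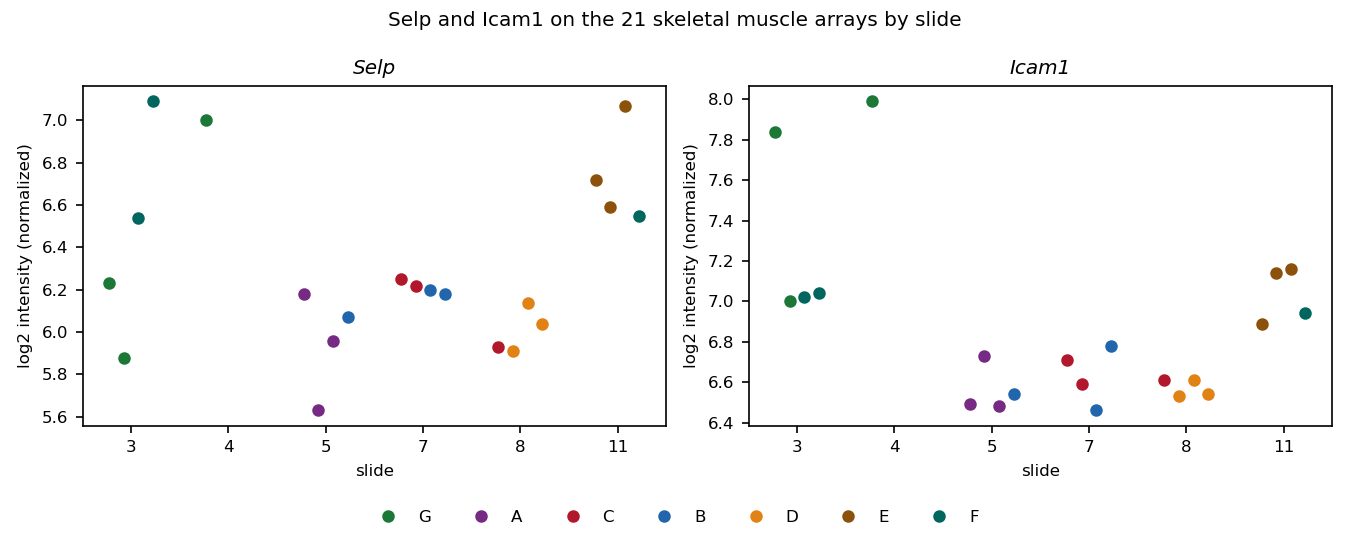
Normalized log2 intensity of Selp and Icam1 (y) on the 21 skeletal muscle arrays, placed by slide (x) and coloured by group. The arrays of slide 11 (huoxue and 1 rosiglitazone) lie above those of slides 5, 7 and 8, and no slide holds macroangiopathy arrays beside huoxue or rosiglitazone arrays.

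Beside these genes, endothelial and leukocyte markers were read in muscle in E and F vs C. Of the 14 endothelial markers 3 rose and 3 fell in E vs C, with a median of 0.04, and 2 rose and 3 fell in F vs C, with a median of 0.08, next to 44.6% and 29.3% of all genes that passed. The junction genes Esam (-1.63 ± 0.13, adjusted P = 0.000556) and Cdh5 (-0.97 ± 0.16, adjusted P = 0.00731), which hold endothelial cells together, fell in E while Selp and Icam1 rose, and in F they gave -1.36 ± 0.27 and -0.49 ± 0.10. The tight junction gene Cldn5 also fell in E (-0.51 ± 0.10), while Flt1 (0.44 ± 0.13), Nos3 (0.42 ± 0.13) and Pecam1 (0.38 ± 0.14), itself a junction protein, rose. Of 11 tested leukocyte markers 1 rose and 1 fell in E, and 5 rose in F, among them Csf1r (0.50 ± 0.12) and Ptprc (0.26 ± 0.09). The leukocyte mean was 6.57 to 6.72 in macroangiopathy, 6.56 to 6.77 in huoxue and 6.82 to 6.92 in rosiglitazone muscle, and its part in these results was not tested.

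The partners of these genes in the adhesion cascade were read as a list of 52. It held leukocyte integrins, selectin ligands and the enzymes that decorate them, other adhesion and junction proteins, and the cytoplasmic anchors Ezr, Msn and Rdx. It also held cytokines, receptors and transcription factors that regulate the family, activators and inhibitors together. In A vs G over both tissues 6 of 48 tested partners rose and 6 fell, with a median of -0.17. In C vs G 7 of 49 rose and 4 fell, with a median of -0.12. Both shares are near those of all genes, and 2 partners passed after adjustment, both in C vs G. Gcnt1, which builds the branched sugar that P-selectin recognizes on the Selplg product, fell by 1.33 ± 0.30 (limma adjusted P = 0.0283). Itgb1, a chain of VLA-4 and of other integrins, rose by 0.90 ± 0.22 (adjusted P = 0.0425). In A vs G the same genes gave -1.07 ± 0.28 and 0.87 ± 0.23, with adjusted P values of 0.0525 and 0.0564.

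Of the 15 genes listed as regulators, none rose in A vs G or C vs G over both tissues. In A vs G 4 of 12 fell and in C vs G 2 of 13, where 21.7% and 24.4% of all genes passed. The list mixes activators with inhibitors such as Klf2, Klf4 and Nfkbia, so these counts give no direction of induction. In C vs A 2 of 50 partners rose and none fell over both tissues (5.18% of all genes passed). In B vs C none of 49 passed (2.75%), and in D vs C 1 of 50 rose (3.4%). In E vs C muscle 8 of 42 rose and 10 fell, and in F vs C muscle 4 rose and 4 fell, which is close to or below the share of all genes. Between the tissues 35 of 50 partners were higher in aorta and 7 in muscle (77.3% of all genes passed), with a median of 0.60, beside 1.15 for the 5 tested genes and 0.04 for all genes. The 3 with the smallest adjusted P in each direction were Alcam (2.69), the anchor Msn (1.80) and the tumour necrosis factor receptor Tnfrsf1a (1.20), higher in aorta, and St3gal6 (-1.98), Icam4 (-1.85) and the anchor Rdx (-0.81), higher in muscle.

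The genes that ran most like each of the 5 over the 42 arrays, once the mean of each tissue was taken off, differed between them. For Selplg they were Hcls1, Snx20 and Hcst, with Pearson correlations of 0.97, 0.97 and 0.96, and for Icam1 Slfn2, Casp4 and Tifa, with 0.90, 0.89 and 0.89. For Vcam1 they were the histone genes Hist2h3c1 and Hist1h3d (0.87 and 0.86) and Tcf19 (0.85), for Icam2 St6galnac3, BC096441 and Plvap (0.73, 0.68 and 0.66), and for Selp Pwp1, Socs4 and Gda (0.77, 0.75 and 0.72). Among the genes themselves, Icam1, Vcam1 and Selplg ran together, with correlations of 0.83 between Icam1 and Vcam1, 0.84 between Icam1 and Selplg and 0.81 between Vcam1 and Selplg. Selp followed Icam1 at 0.44 and Selplg at 0.12, and Icam2 followed none above 0.38. These are descriptions over arrays that share slides and cell content, and the values for Icam1, Vcam1 and Selplg held in each tissue, from 0.83 to 0.89 in aorta and from 0.77 to 0.86 in muscle.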

How the data were processed

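Per the labels and file headers, the authors labelled total RNA with Cy3, hybridized 1 sample per array on 11 slides and scanned with Agilent Feature Extraction 10.7. The deposited files give the intensity of 45018 spots per array, not normalized, with marks for irregular spots and for spots well above background. Another deposited file holds log2 values normalized by the authors and served as an alternative. Median intensities were corrected with normexp (offset 0), quantile normalized across all arrays and logged (log2) with limma 3.58.1 (R 4.3.3). The default normexp fit left 26 arrays with a median above 6, so its parameters were fitted on spots without irregularity marks. This, and the masking of spots with irregular background, were settled after values had been seen. Control spots (1639) were left out, irregular spots masked (0.1% of probe values), and spots of a probe, then probes of a gene, averaged.

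Genes were tested if at least 1 set of 3 compared arrays had a probe well above background throughout. Each comparison was fitted over all genes with lmFit and eBayes, with tissue as a term, in each tissue alone and with an interaction, at an unadjusted P of 0.05 as in the study's methods, with Benjamini-Hochberg adjusted values beside it. The fit was tested on simulated data for A vs G and E vs C, with 200 genes raised by 1 log2 unit. Over both tissues it recovered 91.5% and 93.5% of them unadjusted, and 58% and 63.5% after adjustment. In a single tissue it recovered 79.3% to 88.5% unadjusted and 0% after adjustment. With genes raised in aorta only, the interaction recovered 68.5% and 70.5% unadjusted and 0% after adjustment. The genes, lists and tests were chosen with earlier results of these data known. Named by rule were the 6 genes, partners that passed after adjustment over both tissues (at most 3 in each direction), and the 3 most alike genes of each. Esam, Cdh5 and the single markers were named after their values were seen. The alternatives are given with their effects in the closing section. The normexp fit on all spots and the fit without aorta arrays with Cd79b above 12 were added after seeing the data.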

Additional observations from a re-analysis of the deposited data

Results flagged for a closer look

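In C vs A, Selp differed between the tissues: the log2 difference was -0.48 in aorta and 0.21 in muscle, where it did not pass (unadjusted P = 0.251) and the arrays overlapped, and the aorta minus muscle difference of -0.68 passed the test of the interaction (limma unadjusted P = 0.0275), but not after adjustment (adjusted P = 0.967). It was between -0.81 and -0.53 with each of the 12 arrays left out, and passed in all but 6 of those fits.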

How the results depend on the processing

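Of the 20 calls (a gene in a comparison), none reversed under any of the 15 alternatives or with an array left out. The counts of genes called, of 5, moved by more than 1.5 times as follows. With a normexp offset of 50, or normexp fitted on all spots (chosen after seeing the data), A vs G over both tissues went from 2 to 1 and F vs C over both tissues from 0 to 1. With the processed signal, C vs A in aorta and its interaction went from 1 to 0, C vs G over both tissues from 1 to 2, D vs C in muscle from 0 to 1, E vs C in muscle from 3 to 1 and F vs C in muscle from 2 to 0. The aorta call of C vs A was also lost (0) with quantile normalization within tissue, no filter, other eBayes options, the replicate block and each fit of all 42 arrays. With the brightest probe, C vs A in muscle, B vs C in muscle and F vs C over both tissues went from 0 to 1. With the authors' table, C vs G over both tissues went to 2 and D vs C in muscle to 1. Without a tissue term A vs G had 0, and with healthy arrays alone the tissue contrast had 2. Smaller moves were E vs C in muscle from 3 to 2 (offset 50, normexp on all spots, the authors' table, no filter, other eBayes options and the replicate block), A vs G in muscle from 2 to 3 (brightest probe), C vs G in muscle from 3 to 2 (each fit of all 42 arrays) and the tissue contrast from 4 to 5 (processed signal and quantile normalization within tissue; with no filter also 5, but of 6, since Sele then enters).

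In the joint fit of all 42 arrays, in the same fit with a batch of slides 1, 3 and 11, and in that with slide as a random block (correlation 0.16), A vs G in muscle had 1, 1 and 1 genes, the interaction of C vs A 0, 0 and 0, C vs G in aorta 2, 1 and 1, E vs C in muscle 1, 0 and 1, and F vs C in muscle 0, 0 and 1. C vs G over both tissues had 2 in the first and last of these, and E vs C over both tissues 0 in the first 2. Without the aorta arrays with Cd79b above 12 (also chosen after seeing the data), C vs G had 3 over both tissues and 1 in aorta, D vs C 2 interactions, and E and F vs C 2 each over both tissues. In C vs A the count stayed at 1 in aorta and for the interaction, but the gene was Icam1 in place of Selp. The replicate block gave C vs G 2 over both tissues. Same-numbered samples did not deviate together as a rule, though some did (42 correlations from -0.47 to 0.58, 8 of them over 0.1), so the numbers were not taken to pair samples of different groups.

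With each array left out, the count ran from 1 to 3 in A vs G and in C vs G over both tissues, from 1 to 2 in E vs C over both tissues, from 2 to 3 in A vs G, E vs C and F vs C in muscle, and stayed at 3 in C vs G in muscle and at 4 between tissues. It ran from 0 to 1 in A vs G and C vs G in aorta and their interactions, in C vs A in aorta, in muscle and for the interaction, in D vs C in aorta, in B vs C in muscle, in F vs C over both tissues and in the interactions of D, E and F vs C, and was 0 elsewhere. With the processed signal the median over genes moved from 0.04 to 0.17 in muscle for A vs G. Aorta had 62.9% to 77.6% and muscle 53.8% to 70% of probes well above background, and Sele, below it on all arrays, could not be compared.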
